A study of Mus musculus with 54 samples.

Results

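The 9 transcription factors described here (Tbx21, Eomes, Runx3, Gata3, Foxp3, Ikzf2, Bcl6, Prdm1 and Zbtb7b) direct helper and regulatory T cell fates and were followed through stimulation of naive CD4+ T cells of the mouse. They were taken by name, as 9 of the 55385 genes in each of 2 tables of RNA-seq read counts. All 9 had reads in both tables, so that none was lost to the filter of at least 1 read in total, which left 32290 genes in the CD5/CD6 experiment and 27780 in the LAT experiment.

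All cells came from young adult C57BL/6 mice, from pooled lymph nodes and spleens, and either gave RNA directly after purification (0 h) or were stimulated for 4 h or 20 h with plate-bound anti-CD3 at 3 µg/ml and anti-CD28 at 1 µg/ml. The CD5/CD6 experiment had 36 libraries of WT, Cd5-/-, Cd6-/- and Cd5-/-Cd6-/- cells, which lack the T cell surface receptors CD5, CD6 or both, and its naive cells were enriched with a magnetic kit. The LAT experiment had 18 libraries of cells sorted from Lat fl-dtr maT-Cre mice, in which the deletion of Lat also removes a human DTR reporter, so that hDTR+ cells served as WT and hDTR- cells as Lat-/-. LAT is an adaptor through which the T cell receptor reaches its downstream pathways. Each genotype and time had 3 libraries. Neither the labels nor the methods say how many animals were pooled for each, so p-values measure the spread between libraries, which may be partly technical.

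T-bet (encoded by Tbx21) directs the Th1 fate together with RUNX3 and its relative EOMES, GATA3 directs the Th2 fate, and FOXP3 defines regulatory T cells, many of which also hold Helios (Ikzf2). BCL6 directs follicular helper cells and BLIMP1 (Prdm1) opposes it, each repressing the gene of the other in several lymphocyte types. ThPOK (Zbtb7b) fixes the CD4 lineage in the thymus and opposes RUNX3, which is high in CD8+ cells. Several of these genes are also turned up or down by T cell receptor signals before any lineage is chosen.

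Levels are CPM, the reads of a gene relative to all reads of its library, scaled by TMM, a method that corrects library totals for their composition. A gene is called changed at a fold above 2 with a Benjamini-Hochberg adjusted p under 0.05 over all genes of that table, from edgeR's quasi-likelihood test. Totals were 20554354 to 45222554 reads in the CD5/CD6 experiment and 17784644 to 28501095 in the LAT experiment, where 3 reads correspond to at most 0.146 and 0.169 CPM. Lat fell to 5.69 to 19.1 CPM in all Lat-/- libraries, against 92.2 to 351 CPM in their WT cells, and Cd5 and Cd6 both lay at or under 0.663 CPM in every Cd5-/-Cd6-/- library. At 0 h, library 2 labelled Cd5-/- had Cd5 at 720 CPM (129 and 105 in the other two) and Cd6 at 329 CPM, whereas library 2 labelled Cd6-/- had Cd5 at 173 CPM and Cd6 at 1203 CPM (350 and 251 in the other two), so that each goes against its label. Results that change without this pair are given with and without it. The 8 T cell genes, Cd4 and Cd3e among them, summed to 3051 to 8247 CPM in every library. The 8 B cell genes, by contrast, summed to 74.0 to 638 CPM in the enriched cells at 0 h and to 1.58 to 4.90 CPM in the sorted cells.

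Per length of transcript, the order of the 9 genes in unstimulated WT cells began alike in both experiments. Zbtb7b was highest, with 57.1 ± 2.77 RPKM (SD, n = 3) in enriched and 51.5 ± 2.25 in sorted cells, and no library of any other member reached it. Runx3 (17.4 ± 1.67 and 15.4 ± 0.77 RPKM) and Gata3 (14.3 ± 3.08 and 14.6 ± 0.827) followed, and their libraries overlapped in both experiments. Foxp3 had 4.61 ± 0.44 RPKM in enriched cells, overlapping Bcl6 at 4.10 ± 0.728. In sorted cells it had 12.2 ± 1.34 RPKM and did not overlap Bcl6 at 3.38 ± 0.819. Tbx21, Eomes, Prdm1 and Ikzf2 lay between 0.591 and 3.07 RPKM in every WT library at 0 h, and in the enriched cells only Ikzf2 (1.37 ± 0.326) stood clear of its neighbour.

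Stimulation moved most of these genes in WT cells, and more of them down than up. In enriched WT cells 6 of 9 were called at 4 h (Tbx21 and Bcl6 higher, Gata3, Prdm1, Zbtb7b and Runx3 lower), where 19.3% of all genes were called. At 20 h, 7 were called against 29.6% of all genes, with Tbx21 higher and Gata3, Bcl6, Prdm1, Zbtb7b, Runx3 and Ikzf2 lower. Between 4 h and 20 h, 5 were called against 21% of all genes. In sorted WT cells the counts were 5 at 4 h, 6 at 20 h and 4 between these times, where 17.3%, 23.5% and 17.2% of all genes were called. The median log2 fold change of the 9 was -0.85 at 4 h and -1.75 at 20 h in enriched cells and -0.66 and -1.65 in sorted cells. The median over all genes tested was 0, but they include genes with as little as 1 read in total. It is therefore no reference for expressed genes. In a bulk sample, fewer cells of a type and less RNA per cell cannot be told apart.

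**Figure D1:**
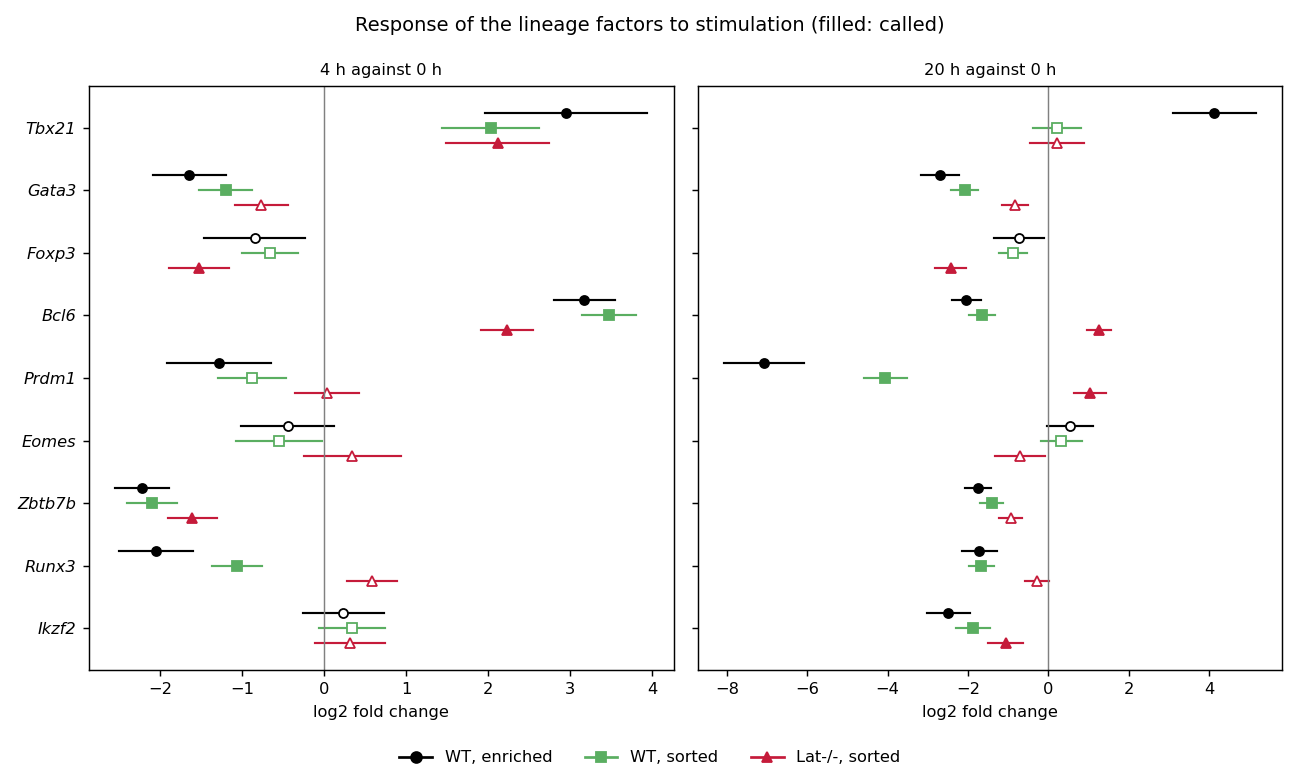
Log2 fold change (x axis) of each lineage factor (y axis) at 4 h and 20 h against 0 h, with 95% intervals from the edgeR fit; filled symbols are called. Bcl6 was called higher at 4 h in all 3 sets of cells, and at 20 h Bcl6 and Prdm1 lay below 0 in both WT sets and above 0 in Lat-/- cells.

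Bcl6 (ENSMUSG00000022508.5, chr16:23965052-23988852, minus strand, GRCm38) rose at 4 h and fell below its starting level by 20 h in WT cells. In enriched WT cells its 3 libraries held 23.7, 25.8 and 33.0 CPM at 0 h, 274, 252 and 217 CPM at 4 h, and 5.81, 8.96 and 5.33 CPM at 20 h. Sorted WT cells held 27.8, 16.9 and 23.4 CPM, then 266, 282 and 206 CPM, then 7.02, 5.97 and 8.79 CPM. All libraries at 4 h were above, and all at 20 h below, those at 0 h, in both experiments. The rise to 4 h was 9.01-fold in enriched cells (log2 3.17 ± 0.19 SE, adjusted p = 3.96e-25) and 11.1-fold in sorted cells (log2 3.47 ± 0.17, adjusted p = 7.38e-92), and the later fall from 4 h was 37.0-fold and 34.7-fold. B cells also hold BCL6, and the summed B cell markers at 4 h were 60.6 to 278 CPM in the enriched cells of all genotypes and 0.579 to 1.46 CPM in the sorted cells. The part of B cells in the rise of the enriched cells was not tested.

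RefSeq (GRCm38.p6) gives Bcl6 a pair of start sites, and the 250 bases before each are shown because they hold the STAT and NFAT motifs that the other members mostly lack. Capitals mark STAT (TTCNNNGAA) and NFAT (GGAAAA) matches on either strand. The first window, chr16:23988853-23989102, lies before the annotated gene, and the second, chr16:23981284-23981533, lies inside it and in no exon.
Bcl6 start 1: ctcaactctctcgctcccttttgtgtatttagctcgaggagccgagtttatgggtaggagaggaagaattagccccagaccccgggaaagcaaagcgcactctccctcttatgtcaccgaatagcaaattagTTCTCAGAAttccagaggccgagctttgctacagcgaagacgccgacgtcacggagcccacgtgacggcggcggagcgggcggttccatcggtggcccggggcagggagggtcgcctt
Bcl6 start 2: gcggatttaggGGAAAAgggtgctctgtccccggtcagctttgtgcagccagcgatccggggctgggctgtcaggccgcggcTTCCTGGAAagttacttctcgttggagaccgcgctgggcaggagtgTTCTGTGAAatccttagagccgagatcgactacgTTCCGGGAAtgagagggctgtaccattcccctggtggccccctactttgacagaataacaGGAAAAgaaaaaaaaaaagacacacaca
The first holds 1 STAT match, 118 bases before the start, and the second holds 3 STAT and 2 NFAT matches, none of which overlap. Of 32851 RefSeq windows of this length, 7.02% hold the STAT motif and 20.4% the NFAT motif. RefSeq promoters were matched for 8 of the 9 members (12 windows). Apart from Bcl6, the STAT motif was found only before the second Foxp3 start, overlapping an NFAT match, and NFAT also before the first Zbtb7b start. The motif of T-box factors, TCACACC (3.33% of windows), was found in none of the 12. That of GATA factors, AGATAA (9.99% of windows), was found before the second Foxp3 start, and that of RUNX factors, TGTGGT (14.0% of windows), before the second Zbtb7b start and, as a pair of matches, before the first Runx3 start. A match says only that these letters are present.

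Without LAT, Bcl6 rose less at 4 h and stayed up at 20 h. The Lat-/- libraries held 22.2, 23.4 and 21.3 CPM at 0 h, 118, 84.1 and 111 CPM at 4 h, and 63.0, 45.2 and 52.5 CPM at 20 h. At 0 h they overlapped WT cells, at 4 h all 3 were lower, and at 20 h all 3 were higher. The difference from WT was log2 -1.27 ± 0.15 at 4 h (adjusted p = 6.01e-15) and log2 2.88 ± 0.17 at 20 h (adjusted p = 1.04e-62). Tested as a difference between the responses, it was log2 -1.24 ± 0.22 at 4 h (adjusted p = 4.28e-07) and log2 2.91 ± 0.23 at 20 h (adjusted p = 6.69e-35). Without the libraries numbered 2, the 4 h value became -0.78 (adjusted p = 0.0136) and was no longer past the fold threshold.

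Prdm1 (ENSMUSG00000038151.13, chr10:44437177-44528501, minus strand) went the other way at 4 h and was close to absent at 20 h in stimulated WT cells. The enriched WT libraries had 8.98, 10.0 and 9.72 CPM at 0 h, 3.65, 4.53 and 3.62 CPM at 4 h, and 4, 2 and 0 reads at 20 h. The fall at 4 h was log2 -1.28 ± 0.32 (adjusted p = 0.000721) and did not overlap 0 h. Over the 3 libraries, 1003 reads at 0 h stood against 6 at 20 h, a ratio of 156 after scaling to library totals, with an exact 95% interval of 71.4 to 426 that covers counting error only. The knockouts of this experiment were also near 0 at 20 h, where the Cd5-/- libraries together had 7 reads of Prdm1, the Cd6-/- libraries 13 and the libraries that lack both genes 10. Sorted WT cells held 8.98, 6.24 and 11.3 CPM at 0 h and 3.83, 4.40 and 6.15 CPM at 4 h, a log2 fold change of -0.88 ± 0.21 (adjusted p = 0.000176) that was under a fold of 2 and not called. At 20 h they had 14, 7 and 17 reads, a ratio of 17.7 (12.8 to 25.3).

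In Lat-/- cells Prdm1 was called higher, not lower, at 20 h, and at 4 h it was not called, as in sorted WT cells. Its libraries held 16.4, 15.5 and 18.3 CPM at 0 h, 15.6, 16.6 and 19.2 CPM at 4 h, and 33.7, 41.3 and 28.1 CPM at 20 h, each above every WT library of its time. The rise from 0 h to 20 h was 2.06-fold (log2 1.04 ± 0.20, adjusted p = 6.69e-06) and lay just past the threshold. It was log2 0.83 without the libraries numbered 2 and 0.97 with library totals in place of TMM, both short of a call. Against WT, Prdm1 was higher by log2 0.92 ± 0.20 at 0 h (adjusted p = 0.000836, under a fold of 2), by 1.83 ± 0.21 at 4 h (adjusted p = 2.23e-16) and by 6.02 ± 0.27 at 20 h (adjusted p = 3.85e-104). The response to 20 h differed by log2 5.10 ± 0.34 (adjusted p = 1.15e-48), which was the largest difference of the 9. Bcl6 and Prdm1 were both higher in Lat-/- than in WT cells at 20 h, whereas at 4 h Bcl6 was lower and Prdm1 higher.

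The bases before the RefSeq start of Prdm1 (chr10:44458749-44458998, inside the annotated gene and in no exon) are shown for a match to a loose AP-1 motif. They held the only match to TGANTCA (in capitals) among the 12 windows, 48 bases before the start. In this loose form N is any base, and the match has A there. The loose form is in 6.75% of all windows.
Prdm1 start: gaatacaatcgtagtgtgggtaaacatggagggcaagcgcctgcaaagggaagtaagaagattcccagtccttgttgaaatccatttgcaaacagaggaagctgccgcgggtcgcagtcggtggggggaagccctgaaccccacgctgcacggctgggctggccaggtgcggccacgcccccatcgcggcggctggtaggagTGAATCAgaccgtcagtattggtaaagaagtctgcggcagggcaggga

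Tbx21 (ENSMUSG00000001444.2, chr11:97098071-97115331, minus strand), the Th1 regulator, rose in both WT sets at 4 h and then parted between the experiments. Enriched WT cells held 2.20, 6.08 and 7.64 CPM at 0 h, 19.2, 44.6 and 60.4 CPM at 4 h, and 43.7, 88.1 and 151 CPM at 20 h. Sorted WT cells held 2.71, 2.98 and 1.47 CPM, then 10.0, 7.42 and 11.7 CPM, then 2.61, 2.40 and 3.31 CPM. Every enriched library at 20 h was thus above every enriched library at 0 h, whereas in sorted cells the libraries of 20 h and 0 h overlapped. The rise at 4 h was 7.74-fold in enriched (log2 2.95 ± 0.49, adjusted p = 6.95e-07) and 4.08-fold in sorted cells (log2 2.03 ± 0.30, adjusted p = 1.25e-10), and at 20 h against 0 h the values were log2 4.14 ± 0.52 (adjusted p = 1.28e-10) and 0.22 ± 0.30 (adjusted p = 0.646). From 4 h to 20 h Tbx21 rose by log2 1.18 ± 0.46 in enriched cells (adjusted p = 0.0383) and fell by 1.81 ± 0.30 on the log2 scale in sorted cells (adjusted p = 1.08e-08). The first call is lost with RLE factors, library totals, a filter on low counts or DESeq2 (adjusted p 0.067 to 0.192), and the second with DESeq2 (adjusted p = 0.0677). The tables were not fitted together, and the purification, mouse line and experiment cannot be told apart. The 2 WT sets also differed in Lat, with a mean of 704 CPM in enriched and 249 CPM in sorted cells at 0 h.

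Spread between libraries was large for Tbx21. Library 1 was the lowest in 12 of 12 groups of the CD5/CD6 experiment. A list of 7 markers of antigen-experienced T cells, with Cxcr3 and Ccl5 among them, summed to 282 to 347 CPM at 0 h in enriched WT cells. The sum was 479 to 545 CPM at 4 h and 729 to 823 CPM at 20 h, rising along with Tbx21. Not every marker followed the sum, since Cxcr3 was lower at 20 h than at 0 h and Gzmk had no reads at 20 h. In sorted WT cells the markers summed to 277 to 371, 428 to 545 and 751 to 822 CPM. That sum was also higher at 20 h, where Tbx21 was lower than at 4 h. Those of NK cells, which hold T-bet and EOMES, summed to 34.3 to 92.4 and 15.6 to 26.9 CPM at 0 h in the enriched and sorted cells of all genotypes, and to 0.366 to 3.23 CPM at 20 h in the enriched cells. Those of γδ T cells summed to 39.0 to 139 and 14.5 to 45.2 CPM at 0 h. Their part in the course of Tbx21 was not tested.

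Lat-/- cells still raised Tbx21 at 4 h, from 1.09, 0.42 and 2.03 CPM to 6.83, 1.29 and 7.34 CPM (log2 2.11 ± 0.32, adjusted p = 1.76e-09), and held 1.67, 0.0742 and 2.48 CPM at 20 h. Library 2 had the lowest value at all 3 times. The response at 4 h differed from that of WT cells by log2 0.09, with a 95% interval of -0.74 to 0.91, and at 20 h by -0.01 (-0.93 to 0.91). The level itself was lower than in WT cells at each time, by log2 -0.99 ± 0.33 at 0 h (adjusted p = 0.12), -0.90 ± 0.29 at 4 h (adjusted p = 0.00866) and 1.998-fold at 20 h (adjusted p = 0.00612), none of which passed the fold threshold. At 20 h RLE factors (log2 -1.04) and library totals (log2 -1.05) put it just past. At 0 h, where libraries of the same number deviated together, a fit with the replicate number as a block gave -1.24 (adjusted p = 0.00699), which is called. Without library 3 of the Lat-/- cells at 20 h, the value at 20 h was -1.77 (adjusted p = 2.18e-05), which is called. Library 3 had the highest Tbx21 of that group, and the fit without it keeps library 2, which had 2 reads.

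Runx3 (ENSMUSG00000070691.10, chr4:135120652-135177990, plus strand), the partner of T-bet, fell in stimulated WT cells. Enriched WT cells held 87.6, 78.2 and 94.8 CPM at 0 h, 18.7, 26.4 and 17.9 CPM at 4 h, and 33.5, 27.1 and 18.7 CPM at 20 h. Sorted WT cells went from 81.2, 74.9 and 74.2 CPM to 46.0, 36.6 and 27.8 CPM and on to 28.7, 24.4 and 19.3 CPM. No stimulated library overlapped the unstimulated ones, and the fold decrease was 4.13 at 4 h and 3.28 at 20 h in enriched cells and 2.09 and 3.18 in sorted cells. The call at 4 h in sorted cells is lost without the libraries numbered 3 (log2 -0.93). Lat-/- cells went from 72.8, 78.1 and 74.0 CPM to 162, 115 and 59.7 CPM at 4 h, a wide spread, and to 62.5, 72.7 and 49.0 CPM at 20 h. They overlapped WT cells at 0 h and lay above all WT libraries at 4 h and 20 h. The responses differed by log2 1.64 ± 0.22 at 4 h (adjusted p = 5.63e-12) and 1.38 ± 0.22 at 20 h (adjusted p = 4.62e-09).

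Eomes (ENSMUSG00000032446.14, chr9:118478212-118486132, plus strand), the T-box relative of T-bet, moved little in WT cells but was the member most reduced at 0 h without LAT. Enriched WT cells held 6.88 to 9.46 CPM at 0 h, 5.00 to 7.98 CPM at 4 h and 11.3 to 14.2 CPM at 20 h, and sorted WT cells 5.54 to 9.88, 4.49 to 6.45 and 9.10 to 10.5 CPM. Neither was called at 4 h or at 20 h against 0 h. From 4 h to 20 h the values were log2 0.98 ± 0.29 (adjusted p = 0.00439) in enriched and 0.87 ± 0.27 (adjusted p = 0.00498) in sorted cells, just under a fold of 2, and the fit with a replicate block put the first at 1.00 (adjusted p = 0.000207), just past it. Lat-/- cells held 0.938, 0.979 and 3.54 CPM at 0 h, 3.44, 0.822 and 2.65 CPM at 4 h, and 0.708, 0.445 and 2.27 CPM at 20 h, each below every WT library of its time. The differences were log2 -2.07 ± 0.29 at 0 h (adjusted p = 3.47e-10), -1.17 ± 0.29 at 4 h (adjusted p = 0.000292) and -3.08 ± 0.30 at 20 h (adjusted p = 5.99e-23). A filter on low counts ends the calls at 0 h and 4 h (adjusted p 0.0649 and 0.0663), DESeq2 that at 4 h (adjusted p = 0.0541), and leaving out the libraries numbered 2 also that at 4 h (log2 -0.87). NK markers summed to 21.2 to 26.9 CPM in Lat-/- and 15.6 to 26.8 CPM in WT cells at 0 h, and to 51.2 to 67.4 and 0.398 to 1.36 CPM at 20 h, with Ncr1 at 0 in the Lat-/- cells at 20 h. Their part in the level of Eomes was not tested.

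Gata3 (ENSMUSG00000015619.10, chr2:9857078-9890034, minus strand), the Th2 regulator, fell in WT cells at both times. Enriched cells held 71.0, 50.1 and 49.4 CPM at 0 h, 14.9, 24.0 and 15.6 CPM at 4 h, and 12.4, 7.67 and 6.09 CPM at 20 h. In sorted cells the values were 54.4 to 60.4, 21.0 to 29.2 and 13.1 to 14.1 CPM. The libraries of the 3 times did not overlap in either experiment. The decrease against 0 h was 3.13-fold at 4 h and 6.49-fold at 20 h in enriched cells (adjusted p = 3.13e-09 and 8.88e-17), and 2.30-fold and 4.23-fold in sorted cells (adjusted p = 5.75e-12 and 2.33e-32). Lat-/- cells held 65.9, 61.8 and 63.8 CPM, then 38.4, 37.6 and 36.7 CPM, then 35.7, 39.0 and 32.3 CPM. All were above the WT libraries of their time, and from 4 h to 20 h they changed by log2 -0.07 ± 0.16 (adjusted p = 0.966). The response to 20 h differed by log2 1.24 ± 0.23 (adjusted p = 9.88e-07), and at 4 h by 0.44 ± 0.23 (adjusted p = 0.247).

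Foxp3 (ENSMUSG00000039521.13, chrX:7573644-7595245, plus strand) marks regulatory T cells, which a gate for naive cells need not remove. Sorted WT cells held 54.5, 50.3 and 62.4 CPM at 0 h, 30.7, 34.3 and 40.9 CPM at 4 h, and 30.9, 30.9 and 29.4 CPM at 20 h. Lat-/- cells held 24.5, 16.3 and 23.2 CPM, then 5.88, 4.23 and 12.1 CPM, then 3.54, 2.30 and 6.01 CPM. The 2 genotypes did not overlap at any time, and the gap widened from log2 -1.39 ± 0.18 at 0 h (adjusted p = 2.97e-12) to -2.26 ± 0.19 at 4 h (adjusted p = 3.22e-31) and -2.95 ± 0.20 at 20 h (adjusted p = 2.74e-49). The response to 20 h differed by -1.56 ± 0.26 (adjusted p = 1.66e-08), and that to 4 h by -0.87 ± 0.25 (adjusted p = 0.00567), under a fold of 2. Enriched WT cells held 19.0 to 23.0 CPM at 0 h, 8.20 to 16.0 CPM at 4 h and 6.17 to 20.3 CPM at 20 h. Foxp3 shares 853 exon bases with Flicr on the same strand, which held a mean of 29.5 and 22.1 reads per library against 502 and 625 for Foxp3, so that some reads could have been counted for either.

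Ikzf2 (ENSMUSG00000025997.13, chr1:69531214-69687245, minus strand), which encodes Helios, did not pass the test at 4 h in WT cells and fell by 20 h. Enriched WT cells held 17.6, 18.5 and 11.5 CPM at 0 h, 19.4, 21.3 and 15.2 CPM at 4 h, and 2.99, 3.02 and 2.44 CPM at 20 h (5.61-fold lower than 0 h, adjusted p = 1.34e-12). Sorted WT cells held 22.1, 10.3 and 28.7 CPM, then 19.4, 27.8 and 30.3 CPM, then 5.48, 5.97 and 5.08 CPM (3.70-fold lower, adjusted p = 3.69e-17). All 20 h libraries lay below all others in both sets. Lat-/- cells held 5.87, 3.17 and 11.6 CPM at 0 h and 6.08, 2.82 and 17.0 CPM at 4 h, lower than WT by log2 -1.56 ± 0.21 (adjusted p = 1.59e-10) and -1.58 ± 0.21 (adjusted p = 2.3e-12). The libraries at 0 h overlapped, and that call is lost with a filter on low counts (adjusted p = 0.204) or with DESeq2 (adjusted p = 0.168). Lat-/- cells held 3.14, 2.23 and 4.58 CPM at 20 h, and their fall from 0 h (log2 -1.07 ± 0.23) is likewise lost with that filter (adjusted p = 0.172), with DESeq2 (adjusted p = 0.2) and without the libraries numbered 3 (log2 -0.74).

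Zbtb7b (ENSMUSG00000028042.15, chr3:89377644-89394776, minus strand), which keeps the CD4 identity, fell at 4 h and lay between its levels of 4 h and 0 h at 20 h. In enriched WT cells it had 302, 325 and 331 CPM at 0 h, 76.6, 68.5 and 60.6 CPM at 4 h, and 102, 99.7 and 83.8 CPM at 20 h. Sorted WT cells held 278 to 302, 50.9 to 92.3 and 101 to 115 CPM, and Lat-/- cells 293 to 295, 86.3 to 114 and 138 to 163 CPM. No stimulated library came near the unstimulated ones. The fold decrease at 4 h was 4.66 in enriched WT, 4.28 in sorted WT and 3.05 in Lat-/- cells, and its difference between Lat-/- and WT cells was log2 0.49 ± 0.21 (adjusted p = 0.111). Both Zbtb7b and its opponent Runx3 therefore fell in stimulated WT cells, and in Lat-/- cells at 4 h Zbtb7b fell while Runx3 had a log2 fold change of 0.58 ± 0.15 (adjusted p = 0.00187), under a fold of 2.

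**Figure D2:**
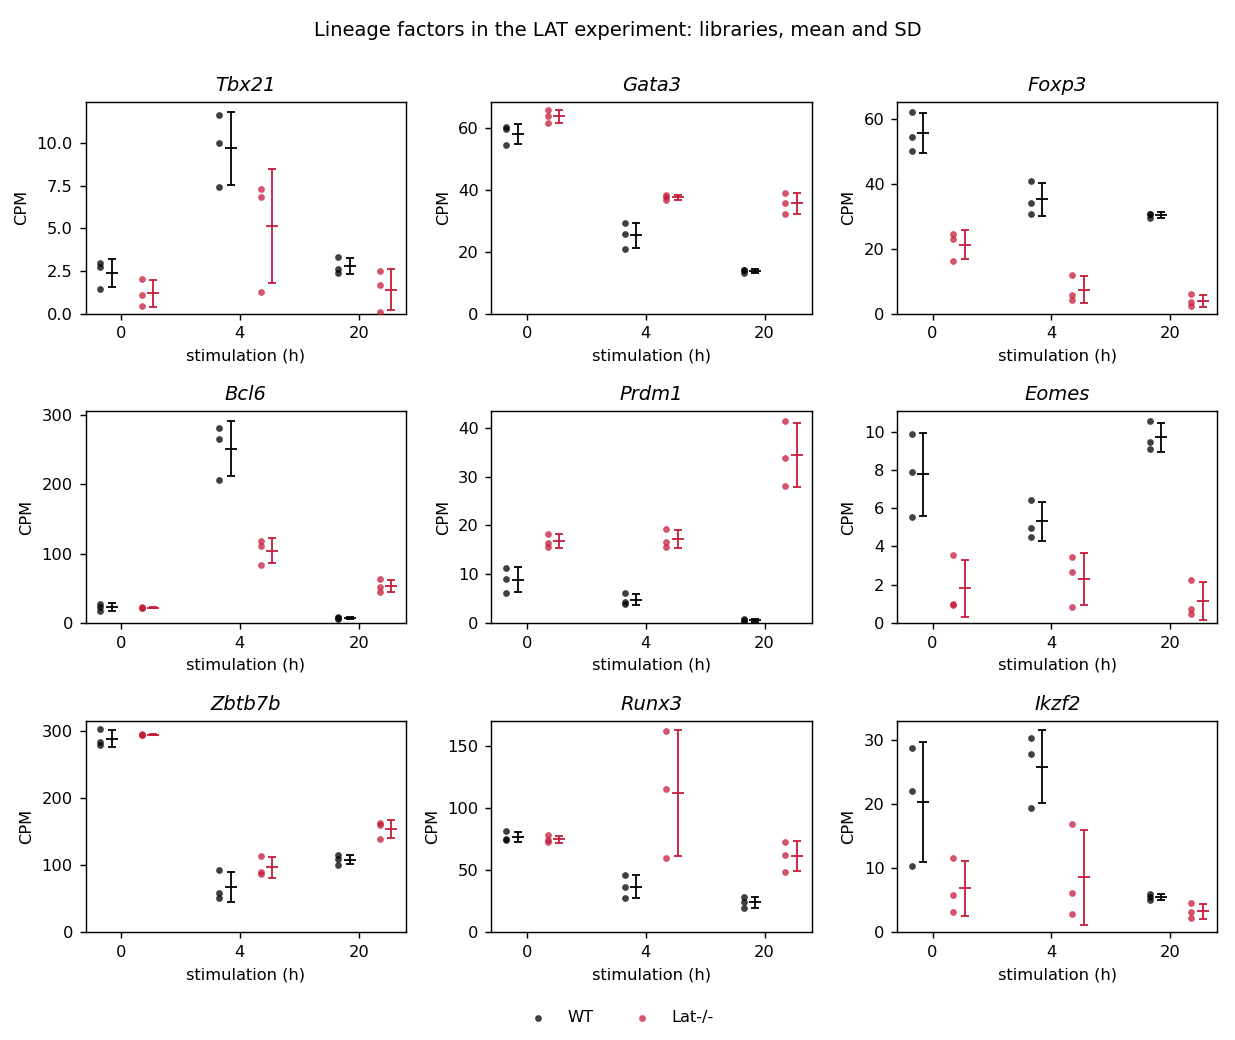
CPM (y axis, from 0) of each lineage factor in the LAT experiment at 0, 4 and 20 h, with a point per library, and the mean and SD beside the points. Prdm1 in Lat-/- cells (28.1 to 41.3 CPM at 20 h) and Foxp3 in WT cells (29.4 to 30.9 CPM at 20 h) lie clear of the other genotype.

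Taking the 9 by count in the LAT experiment, Lat-/- cells had 4 called at 4 h and 4 at 20 h against 0 h, where 6.7% and 4.21% of all genes were called, and 4 between 4 h and 20 h (4.1% of all genes). Tbx21 and Bcl6 rose and Foxp3 and Zbtb7b fell at 4 h, and Bcl6 and Prdm1 rose and Foxp3 and Ikzf2 fell at 20 h. Between the genotypes, 3 members were called at 0 h (0.961% of all genes), all lower in Lat-/- cells. At 4 h 6 were called (11.7%) and 6 at 20 h (24.4%), with Foxp3 and Eomes lower at both times and Prdm1 and Runx3 higher at both. The responses differed in 2 members at 4 h (8.71%) and in 5 at 20 h (19.5%). Comparisons of Lat-/- with WT cells and of the responses share the same WT libraries.

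With all libraries and no block, loss of CD5, CD6 or both left each of the 9 short of a call against WT cells. The fit with a replicate block called Foxp3 lower at 20 h in Cd5-/- and Cd5-/-Cd6-/- cells (log2 -1.35, adjusted p = 0.0129, and -1.31, adjusted p = 0.012). Fits that left out libraries also called Foxp3, Tbx21, Eomes or Ikzf2 in some comparisons, as given below. The share of all genes called in these fits and in the block fit is not given here. The 3 knockout genotypes responded to stimulation much as WT cells did. Cd5-/- cells had 7 members called at 4 h and 8 at 20 h (19.5% and 30% of all genes), Cd6-/- cells 5 and 9 (18% and 28.2%), and Cd5-/-Cd6-/- cells 5 and 8 (17.2% and 30.3%). Bcl6, for example, rose 8.39-fold, 7.94-fold and 7.24-fold at 4 h in the 3 knockouts, against 9.01-fold in WT cells. Compared with WT cells at the same time without the block, 0 of 9 were called in any of 9 comparisons, where 0.0619%, 0.0743% and 0.0186% of all genes were called in Cd5-/- cells at 0, 4 and 20 h, 0%, 0.0031% and 0.0186% in Cd6-/- cells, and 0.0248%, 0.0434% and 0.0434% in Cd5-/-Cd6-/- cells. The responses differed in 0 of 9 members in any of 6 comparisons (0.0031% of all genes for Cd5-/- at 4 h and at 20 h and for Cd6-/- at 20 h, and 0% for the others). DESeq2 also called 0 members in all 15.

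At an unadjusted p under 0.05 in edgeR, the 15 comparisons held 18 of 135 member tests, and 7 of the 15 held none. In all, 6 members had such a p in Cd6-/- cells at 4 h (Tbx21, Gata3, Foxp3, Eomes, Runx3 and Ikzf2) and 5 in Cd5-/-Cd6-/- cells at 4 h (the same without Foxp3), all with a higher level than in WT cells, where 2.74% and 2.76% of all genes had one. These comparisons share the same 3 WT libraries at 4 h, so the second is no separate support for the first. Cd5-/- cells at 4 h had 0, where 3.39% of all genes had one. The rest were Foxp3 in Cd5-/- and in Cd5-/-Cd6-/- cells at 20 h, both also in the difference of responses, Eomes in Cd6-/- cells at 20 h, and Eomes and Ikzf2 in Cd5-/-Cd6-/- cells at 0 h.

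**Figure D3:**
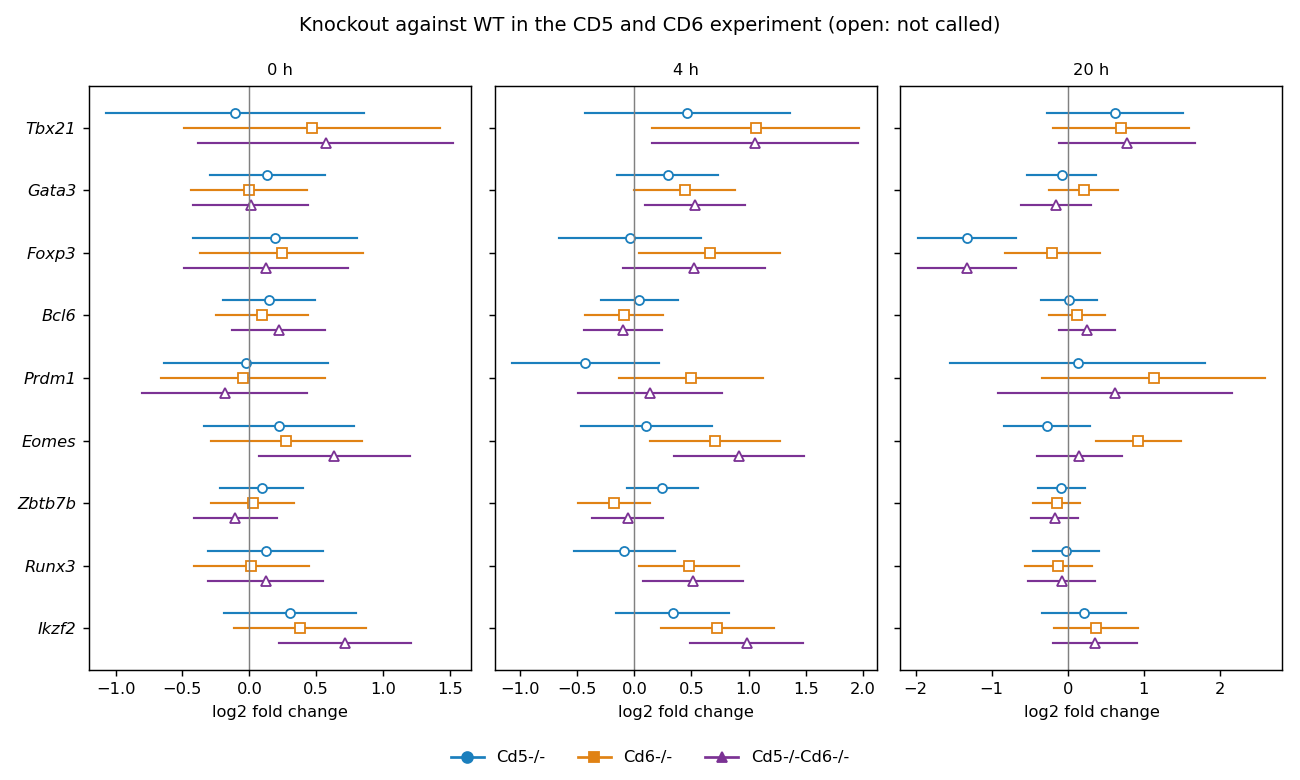
Log2 fold change (x axis) of each lineage factor (y axis) in Cd5-/-, Cd6-/- and Cd5-/-Cd6-/- cells against WT cells at 0, 4 and 20 h, with 95% intervals from the edgeR fit. No symbol is filled, since none was called, and the intervals of Foxp3 at 20 h in Cd5-/- and Cd5-/-Cd6-/- cells lie below 0.

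Foxp3 at 20 h came nearest to a call. WT cells held 20.3, 11.4 and 6.17 CPM, Cd5-/- cells 7.28, 5.75 and 2.26 CPM, Cd6-/- cells 16.2, 11.6 and 5.08 CPM, and Cd5-/-Cd6-/- cells 6.46, 5.41 and 3.20 CPM. The groups overlapped, but with libraries of the same number set beside each other, Cd5-/- and Cd5-/-Cd6-/- cells were lower than WT cells in 3 of 3. The value was log2 -1.33 ± 0.32 in both (adjusted p = 0.195 and 0.162), and -0.20 ± 0.31 in Cd6-/- cells (95% interval -0.82 to 0.42). Libraries of the same number deviated together in these comparisons, and both were called by the fit with a replicate block, as above. The fit without the 0 h pair that goes against its labels called them too (-1.32, adjusted p = 0.00244, and -1.30, adjusted p = 0.00176). Neither library of that pair is in these comparisons, and the log2 values were close to those of the fit with all libraries. These calls are therefore no separate support. In Cd5-/- cells Foxp3 was also called lower without the libraries numbered 1 (-1.13), 2 (-1.495) or 3 (-1.30). In Cd5-/-Cd6-/- cells it was called without those numbered 2 (-1.42) or 3 (-1.42). At 0 h and 4 h Cd5-/- cells differed from WT cells by 0.19 (-0.42 to 0.80) and -0.04 (-0.66 to 0.58). Against its own 0 h libraries, Foxp3 was called lower at 20 h in Cd5-/- (log2 -2.26 ± 0.33), Cd6-/- (-1.18 ± 0.31) and Cd5-/-Cd6-/- cells (-2.19 ± 0.33), and gave -0.74 ± 0.31 (adjusted p = 0.0528) in WT cells. Library 1 decided the last of these, since without the libraries numbered 1 it was -1.33 (adjusted p = 2.53e-06), which is called, and without those numbered 3 the call in Cd6-/- cells is lost (-0.77). The call at 4 h in Cd5-/- cells (-1.08, adjusted p = 0.00425) is lost without the 0 h pair (-0.68, adjusted p = 0.052) and without the libraries numbered 3 (-0.97).

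Ikzf2 and Eomes were higher in the absence of CD6 in some groups without passing the test. For Ikzf2 at 4 h, WT cells held 19.4, 21.3 and 15.2 CPM, Cd6-/- cells 21.4, 39.9 and 31.2 CPM, and Cd5-/-Cd6-/- cells 28.1, 43.0 and 39.4 CPM, with neither knockout overlapping WT cells (log2 0.73 ± 0.25, adjusted p = 1, and 0.98 ± 0.25, adjusted p = 0.259). Eomes at 20 h held 11.5, 14.2 and 11.3 CPM in WT and 25.3, 24.1 and 21.0 CPM in Cd6-/- cells, which did not overlap (log2 0.93 ± 0.28, adjusted p = 1). In Cd5-/-Cd6-/- cells Eomes ranged from 5.78 to 21.4 CPM at 20 h, on both sides of WT cells. Cd6-/- cells were also the one genotype of this experiment in which Eomes was called higher at 20 h than at 0 h (2.28-fold, adjusted p = 0.000318). The difference of this response from that of WT cells was log2 0.65 ± 0.40 (adjusted p = 1), so it is not shown to be particular to Cd6-/- cells. Without the libraries numbered 1, Ikzf2 was called higher in Cd5-/-Cd6-/- than in WT cells at 0 h (log2 1.01) and 4 h (1.17), and Eomes at 4 h (1.02). Ikzf2 also had its highest level in library 2 in 12 of 12 groups of this experiment.

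Tbx21 at 4 h was 24.0, 99.5 and 47.8 CPM in Cd5-/-, 18.3, 127 and 114 CPM in Cd6-/-, and 33.9, 157 and 66.7 CPM in Cd5-/-Cd6-/- cells, against 19.2, 44.6 and 60.4 CPM in WT cells. All genotypes overlapped. The differences were log2 0.46 ± 0.45, 1.06 ± 0.45 and 1.06 ± 0.45 (adjusted p = 1 for each), with unadjusted 95% intervals of -0.43 to 1.36, 0.16 to 1.97 and 0.15 to 1.96. The outcome turned on single libraries. Without the libraries numbered 3, Tbx21 was called higher than in WT cells at 4 h in Cd6-/- (log2 1.18) and Cd5-/-Cd6-/- cells (1.58) and at 20 h in Cd5-/- (1.15) and Cd5-/-Cd6-/- cells (1.15), and without those numbered 1 at 4 h in Cd5-/-Cd6-/- (1.09) and Cd6-/- cells (adjusted p = 0.00017). For Bcl6 the intervals were narrower, from -0.44 to 0.38 over the 3 knockouts at 4 h. Zbtb7b at 20 h was lower than in WT cells in 3 of 3 libraries of the same number in each knockout, but by log2 -0.08 to -0.17 only (adjusted p = 1).

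**Figure D4:**
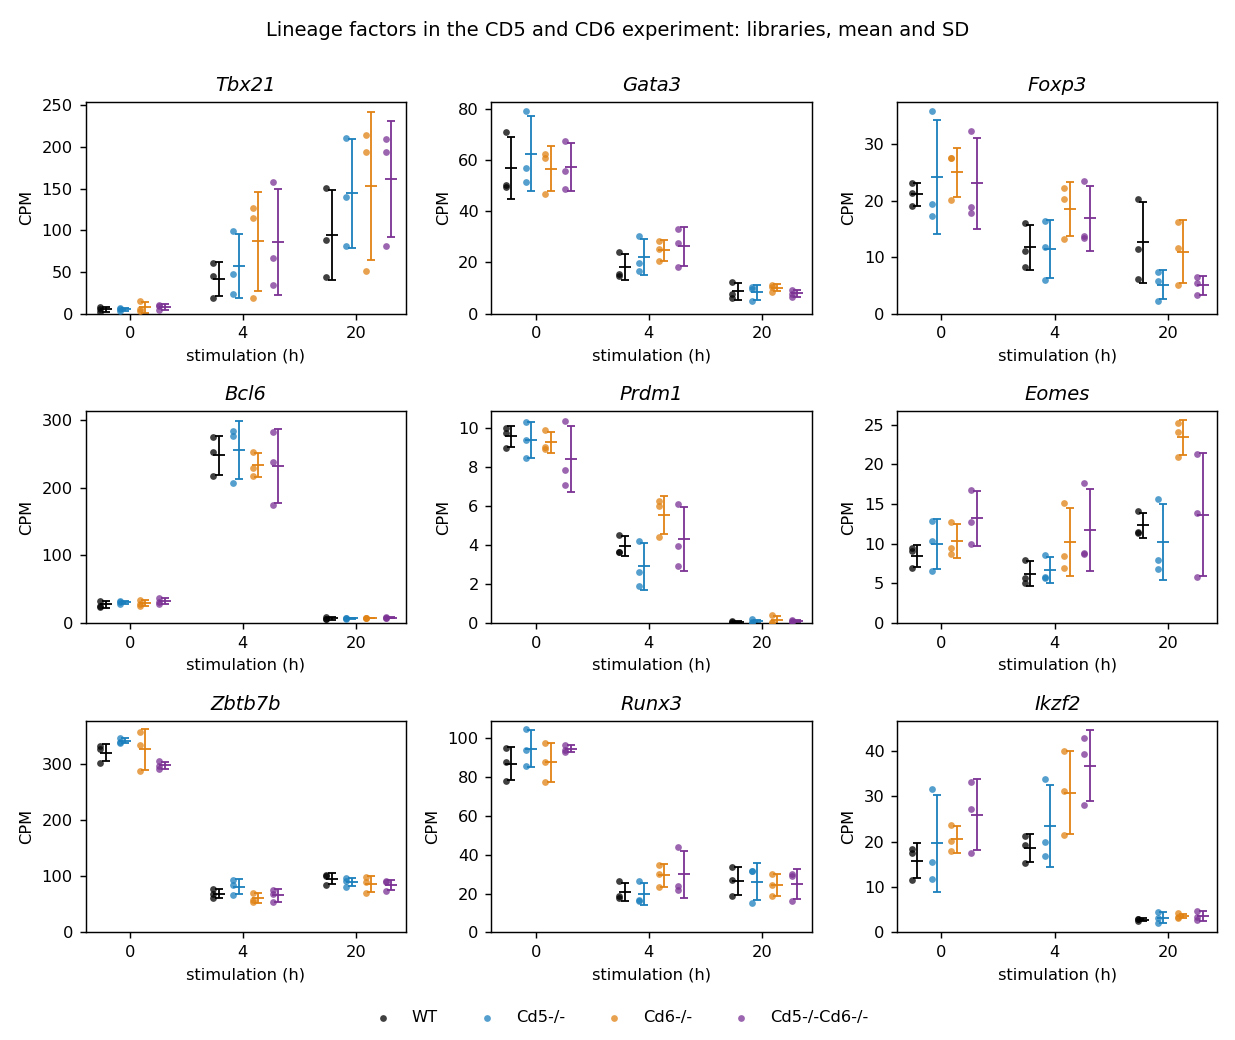
CPM (y axis, from 0) of each lineage factor in the CD5/CD6 experiment at 0, 4 and 20 h, with a point per library, and the mean and SD beside the points. The genotypes overlap in most panels, Eomes at 20 h in Cd6-/- cells (21.0 to 25.3 CPM) lies above WT cells, and Foxp3 at 20 h in Cd5-/- and Cd5-/-Cd6-/- cells (2.26 to 7.28 CPM) overlaps the lowest WT library (6.17 CPM).

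Other factors that act with these 9 were read from a list of 41. In enriched WT cells 9 were called higher and 6 lower at 4 h (median log2 fold change 0.51), where 19.3% of all genes were called. Irf4, needed for several helper fates, rose from 24.1 ± 4.50 to 2355 ± 283 CPM (log2 6.61, adjusted p = 2.93e-42), and Gfi1 by log2 4.75. Tcf7 and Lef1, factors of the naive state, had log2 fold changes of -2.40 and -1.83, and Foxo1 of -1.86. At 20 h, where 29.6% of all genes were called, 7 were higher and 13 lower, with Irf4, Zbtb32 and Bhlhe40 among the most raised and Maf, Rora, Foxo1 and Satb1 the most reduced. In sorted WT cells the counts were 14 and 6 at 4 h (17.3% of all genes) and 10 and 11 at 20 h (23.5%). The response of Lat-/- cells at 20 h was called above that of WT cells for 14 of the 41 and below it for 11 (median 0.39), where 19.5% of all genes were called. Tcf7 was kept at 2860 ± 328 CPM in Lat-/- cells, against 524 ± 25.6 CPM in WT cells (log2 2.45, adjusted p = 7.37e-57), and Irf4 reached 87.8 ± 57.9 against 1017 ± 11.5 CPM (log2 -3.54, adjusted p = 5.09e-103).

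Genes known as targets or marks of each fate were read the same way, against the same shares of all genes called in enriched WT cells (19.3% at 4 h and 29.6% at 20 h). Of 14 Th1 genes, 6 were called higher and 3 lower at 4 h in enriched WT cells, led by the chemokines Ccl4 (log2 5.77) and Ccl3 (3.14) and the receptor Cxcr3 (3.10). Cxcr3 went from 6.31 to 54.8 and back to 2.24 CPM at 20 h while Tbx21 still rose in these cells, and in sorted WT cells from 3.75 to 70.9 and 2.78 CPM. Of 10 Th2 genes 5 were higher and 1 lower at 4 h, with Ccr8 up by log2 6.28, while Gata3 itself fell. Of 10 follicular helper genes 5 were higher and 2 lower, with Pdcd1, which encodes PD-1, up by log2 5.98. At 20 h, when Bcl6 was below its starting level, 4 of these 10 were higher and 4 lower (median log2 -0.29). Among the higher, Pdcd1 was still up by log2 5.12, and Cd200 by 4.71. Of 7 Th17 genes 4 were called higher and 1 lower at 4 h, and 1 and 1 at 20 h.

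Among 16 genes typical of regulatory T cells, 6 were higher and 1 lower at 4 h in enriched WT cells, led by Tnfrsf9 (log2 6.40) and Tnfrsf4 (3.33), which any activated T cell also raises. At 0 h, where Foxp3 was lower in Lat-/- cells, 7 of these 16 were called lower and 0 higher than in WT cells (median log2 -1.06), where 0.961% of all genes were called. Among the 7 were Tnfrsf9 (3.20 ± 0.761 against 26.9 ± 1.64 CPM), Lrrc32 (5.10 ± 2.56 against 19.4 ± 4.52 CPM) and Izumo1r (50.8 ± 10.6 against 163 ± 18.1 CPM). The related factor Ikzf4, which encodes Eos, was also lower, at 5.51 against 14.4 CPM (log2 -1.39, adjusted p = 1.29e-09). Of the other lists, 6 of 41 partner factors, 2 of 14 Th1, 2 of 10 Th2, 3 of 10 follicular helper and 0 of 7 Th17 genes were lower at 0 h, and none was higher. At 20 h, where 24.4% of all genes were called, 9 of the 16 were lower and 4 higher in Lat-/- cells. In the comparisons of the knockouts of Cd5, Cd6 or both with WT cells, 0 genes of any of these lists were called. At most 0.0743% of all genes were called in any of these comparisons, so the 0 is no result about the lists.

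Likeness of course was measured by Pearson's r between mean log2(CPM + 1) over the 12 conditions of the CD5/CD6 experiment, among 10786 genes. It is a description only, since the genotypes responded much alike and the genes with the highest r were picked. Crebzf and Ramp3 were most like Bcl6 (r = 1.00 for both). Over the 6 conditions of the LAT experiment, where genes were not ranked again, their r was 0.93 and 0.88. Pi4kb and Sash3 were most like Zbtb7b (1.00 and 1.00, then 0.99 and 0.79), and Dyrk1b and Cd200r3 most like Prdm1 (1.00 and 1.00, then 0.88 and 0.98). Tbkbp1 was most like Tbx21 (0.99, then 0.98), but the next in order, Agfg1 and Itgb1, went from 0.99 and 0.99 to 0.45 and 0.63. For Foxp3 and Ikzf2 none of the matches named here carried over. Bcl3 had r = 0.98 with Foxp3 and then 0.30, Arrdc3 0.97 and then -0.82, and Il18bp 0.99 with Ikzf2 and then -0.08. Eomes had no close match, its highest r being 0.85, with Rhoq.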

How the data were processed

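RNA of 54 libraries in 18 groups of 3 was measured by poly(A) selected, stranded RNA-seq. The authors trimmed single reads with DimerRemover, used STAR for alignment to GRCm38 (mm10) and featureCounts for gene counts, and deposited the raw counts of each experiment separately, neither normalized nor pooled. The submitters' notes also name bcl2fastq 2.17.1.14 and DESeq2. The annotation release and the settings for strand and for reads that match several genes are not given in the sources used here, so reads of overlapping genes may have been split or dropped. Columns were matched to samples by label, and 0 columns were left unused.

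Here, R 4.3.3, edgeR 4.0.16 (with limma 3.58.1), and DESeq2 1.42.0 were used, with Python 3.11.15, pandas 2.3.3, scipy 1.17.1 and matplotlib 3.10.9 for sequences and plots. Genes with at least 1 read in total entered 1 edgeR quasi-likelihood fit per experiment (TMM factors, 1 coefficient per genotype and time, no block). P-values were adjusted over all genes of the table, and the 2 tables were never fitted together. RPKM divides CPM by the gene length in kilobases given in the tables, and gene positions are theirs too. Symbols came from GENCODE (GRCm38), with 55144 of 55385 identifiers matched. Values are mean ± SD over 3 libraries, and log2 fold changes ± SE. Of the listed genes, up to 4 per direction were named, those with the largest change among called genes whose mean count reached 50. A listed gene that the rule would name is not reported here. The 9 factors and all lists were chosen with earlier results of these data known. Counting noise was smaller than the spread in every pair of replicates.

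Libraries with the same number were checked for pairing by the correlation of their deviations from the group means. Every pair passed 0.1 in 18 of 21 comparisons of a pair of groups in the CD5/CD6 experiment (r from 0.05 to 0.84 over all 21), in all 9 of a knockout with WT cells among them, and in 1 of 9 in the LAT experiment, Lat-/- against WT cells at 0 h (0.33 to 0.44). There the fit with a replicate block is given where it changes a call. In a simulation of the LAT comparison at 20 h (20030 genes, 200 changed), the edgeR fit recovered 200 of them and called 3 unchanged genes. The simulation gave every gene the same spread and changed only genes with many reads, by folds well above 2. It therefore does not cover factors with few reads, uneven spread between libraries or folds near 2. Alternatives were RLE factors, library totals, a filter on low counts, only the groups compared, the block, DESeq2, the adjusted p alone and leaving out each replicate. Chosen after seeing the data were fits that left out library 2 of both single knockouts at 0 h, or library 3 of the Lat-/- cells at 20 h.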

Additional observations from a re-analysis of the deposited data

Results flagged for a closer look

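The response to stimulation differed between Lat-/- and WT cells by a test of the difference itself (edgeR, adjusted p under 0.05 and a fold above 2) in 2 factors at 4 h and 5 at 20 h. At 4 h the log2 difference of responses was -1.24 for Bcl6 and 1.64 for Runx3. At 20 h it was 5.10 for Prdm1, 2.91 for Bcl6, 1.38 for Runx3, 1.24 for Gata3 and -1.56 for Foxp3. For Bcl6 the sign turned between the 2 times, since WT cells rose more by 4 h and then fell below their starting level while Lat-/- cells did not.

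Tbx21 moved in opposite directions from 4 h to 20 h in the WT cells of the 2 experiments. Each of the 3 enriched libraries at 20 h lay above the mean of the 4 h libraries (log2 1.18), but the libraries of the 2 times overlapped. Set beside the 4 h library of the same number, 20 h was higher in 3 of 3, by 2.28-fold, 1.97-fold and 2.49-fold. In sorted cells each of the 3 libraries at 20 h lay below the mean of the 4 h libraries (log2 -1.81). Both calls are lost in some settings, as given above. The difference between the experiments was not tested, since the tables were not fitted together, and purification, mouse line and experiment cannot be told apart in it.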

How the results depend on the processing

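Over 12 alternatives, no called change of the 9 factors turned its sign, and of 3465 results for single factors 3332 kept their side of the thresholds, 39 lost a call and 94 gained one. Leaving out a replicate moved the number of factors called to between 1 and 2 in Cd5-/- against WT cells at 20 h, 0 and 2 in Cd6-/- at 4 h, and 0 and 1, 0 and 3 and 0 and 2 in Cd5-/-Cd6-/- at 0, 4 and 20 h, where 0 were called with all libraries. It moved the differences of responses to between 0 and 1 for Cd5-/- and Cd5-/-Cd6-/- at 20 h and for Cd6-/- at 4 h. In the LAT experiment the ranges were 2 to 4 in Lat-/- cells from 4 h to 20 h (4 with all), 3 to 5 in Lat-/- against WT cells at 0 h (3 with all) and 2 to 4 in the difference of responses at 4 h (2 with all). The replicate block gave 1 call in Cd5-/- and 1 in Cd5-/-Cd6-/- against WT cells at 20 h, Foxp3 in both, as did the fit without the 0 h pair that goes against its labels, with 1 each. That pair is in neither of these comparisons. With only the groups compared, 1 was called in the difference of responses of Cd5-/- cells at 20 h. From 4 h to 20 h in Lat-/- cells a filter on low counts left 0 and DESeq2 left 1, and at 0 h that filter left 1 between Lat-/- and WT cells. The adjusted p alone gave 8 calls from 4 h to 20 h in both WT and Lat-/- sorted cells and 4 in the difference of responses at 4 h. Where the numbers do not pair the libraries, the block called Tbx21 lower in Lat-/- cells at 4 h (-1.06) and 20 h (-1.21) and Eomes lower in the response to 20 h (-1.10), and lost Ikzf2 in Lat-/- cells at 20 h against 0 h (-0.98). The cause of these shifts was not tested. The share of all genes called in each of these fits is not given here. The counts therefore show how calls depend on the settings and are no result about these factors. With 3 libraries a group, factors under about 1 CPM rest on a few reads, as Tbx21 does in library 2 of the Lat-/- cells at 20 h (2 reads).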
